A study of Mus musculus with 6 samples.

Results

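The 9 genes are Cdh1, Epcam, Cldn3, Cldn4, Cldn6, Cldn7, Tjp1, Ocln and Krt8. All but Krt8, which encodes a filament protein, encode proteins with which epithelial cells hold on to each other and seal the space between them. The genes were taken as a list of names, 9 of 21938 protein-coding genes of the mouse annotation, and the rule used no measured value. H3K27ac, acetylation of histone H3 at lysine 27, was profiled by ChIP-seq in mouse embryonic stem cells (mESCs) of the E14Tg2A line, which carry Rosa26-Cre and Oct4-IRES-Puro and were grown with LIF and inhibitors of MEK and GSK3. The 3 groups of 2 replicates each were treated for 120 min with DMSO (control), with 100 nM NVP-2, an inhibitor of the kinase CDK9, or with ActD (actinomycin D), a compound that binds DNA, at 800 nM by the sample labels (1 µg/ml by the protocol). The study asked whether H3K27ac depends on ongoing transcription. The table analysed here is the list of 22973 peaks of control cells, pooled over both replicates, so the values below describe control cells alone, have no replicate error and allow no test. The list gives the position of each peak and neither a height nor a depth, and the treated libraries were not analysed here.

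Adherens junctions are built on E-cadherin, the product of Cdh1, which binds the E-cadherin of the neighbouring cell in the presence of calcium and is tied to actin through catenins. Tight junctions lie above them and consist of strands of claudins together with occludin, anchored to the scaffold protein ZO-1. Embryonic stem cells are known to hold together in compact colonies through E-cadherin, and H3K27ac is a mark of active promoters and enhancers.

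Of the 9 genes, 8 were marked in control cells, which here means that a peak overlapped the window of 1 kb on both sides of an annotated transcription start site (TSS) of any isoform by at least 1 bp. Cldn6 was the unmarked one. Among all protein-coding genes 51.9% were marked. The 8 genes were not marked alike. Cdh1 and Cldn4 lay under peaks of 44.4 and 25.9 kb, Cldn3, Ocln, Tjp1 and Krt8 had peaks of 1.23 to 2.44 kb, and Epcam and Cldn7 had peaks of 625 and 549 bp that began downstream of the first TSS. A peak covered at least 1 TSS in 6 genes, namely Cdh1, Epcam, Cldn3, Cldn4, Tjp1 and Ocln, beside 49.1% of all protein-coding genes. In Cldn7 and Krt8 the peak lay near a TSS and contained none, as in 614 of the 11384 marked genes (5.39%).

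The promoter sequences of 8 of the 9 genes were taken from RefSeq (GRCm38.p6, the same build as mm10), each running from 250 bases before to 50 bases after a TSS. Cldn7 and Ocln have 2 such promoters, which makes 10 in all, and Cdh1 had no entry. Of 7 short motifs searched, the E-box and the GC box described further on were each in 8 of the 10. The E-box CACCTG, which reads CAGGTG on the other strand, is the element through which the repressors Snai1, Snai2, Zeb1 and Zeb2 are known to act on Cdh1. It was found on either strand in 8 of the 10 promoters and in 7 of the 8 genes, beside 4193 of 21263 coding promoters of the same length (19.7%). Of the 12 distinct matches, 11 are shown with up to 10 bases on either side, in the direction of the gene and with the motif in capitals. The coordinates are those of the capitals in mm10, and the number after the gene name is the distance of the first capital from the RefSeq TSS, which is counted as 0.

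Epcam -187 (chr17:87635792-87635797, + strand): cagtagggccCACCTGctggaggacc
Epcam -19 (chr17:87635960-87635965, + strand): ccataaaaccCAGGTGtggaggagaa
Cldn3 31 (chr5:134986245-134986250, + strand): aagccacaggCAGGTGcaggggcagt
Cldn4 -14 (chr5:134946943-134946948, - strand): ttaactgcagCACCTGtggccgccct
Cldn4 11 (chr5:134946918-134946923, - strand): tttcttgttgCAGGTGcaggcaggaa
Cldn6 -93 (chr17:23679272-23679277, + strand): gaaacgcacgCAGGTGgctatcgccg
Cldn6 40 (chr17:23679405-23679410, + strand): gtctcttttgCAGGTGagcc
Cldn7 -97 (chr11:69965324-69965329, + strand): tcttcctcttCACCTGgacgaggagg
Cldn7 -57 (chr11:69965364-69965369, + strand): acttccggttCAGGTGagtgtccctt
Ocln -68 (chr13:100552561-100552566, - strand): aggggctcggCAGGTGggtcccagcg
Ocln 7 (chr13:100552706-100552711, - strand): atcggagtttCAGGTGaatgggtcac

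Tjp1 and the upstream promoter of Cldn7 held no match. The positions of Cldn7 are counted from its downstream RefSeq TSS, that of the first Ocln site from the downstream and that of the second from the upstream RefSeq TSS of the gene. At least 2 matches stood in 5 of the 10 promoters, beside 2.80% of all coding promoters. The 2 promoters of Ocln overlap, and the match at chr13:100552706-100552711 lies in both and counts for each. It is the only match of the upstream one. Of the 12 matches 5, those of Cldn3, Cldn4 and Ocln, lay inside a control peak. The motif stood in 17.4% of 10638 coding promoters with a control peak within 1 kb of their TSS and in 22.1% of 10625 without. Among the other genes of the 6 epithelial lists described further on, 26 of 71 promoters (36.6%) held it, and among the mesenchymal genes 1 of 11 (9.09%). These promoters belong to the 52 of 85 epithelial and 8 of 14 mesenchymal genes that had a RefSeq entry. A match is a description of the letters and says nothing of whether a factor was bound.

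The stretch upstream of the first TSS is shown for Epcam, whose control peak begins downstream of it, for Cldn4, which lies inside a wide peak, and for the unmarked Cldn6. Each ends 1 base before the most upstream annotated TSS, and capitals mark the E-box. The region of Cldn6 held no match, since both matches of this gene lie downstream of its first GENCODE TSS.

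Epcam (chr17:87635729-87635978, + strand): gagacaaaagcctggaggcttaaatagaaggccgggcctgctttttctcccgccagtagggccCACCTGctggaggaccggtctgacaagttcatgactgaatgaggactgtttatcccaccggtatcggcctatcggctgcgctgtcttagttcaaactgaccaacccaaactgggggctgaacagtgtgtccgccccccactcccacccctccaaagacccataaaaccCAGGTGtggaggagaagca
Cldn4 (chr5:134946935-134947184, - strand): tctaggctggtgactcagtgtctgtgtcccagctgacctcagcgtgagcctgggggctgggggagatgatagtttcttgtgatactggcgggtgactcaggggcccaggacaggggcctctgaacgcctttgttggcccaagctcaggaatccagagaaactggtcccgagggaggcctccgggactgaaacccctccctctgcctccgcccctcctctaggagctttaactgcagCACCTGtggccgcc
Cldn6 (chr17:23679115-23679248, + strand): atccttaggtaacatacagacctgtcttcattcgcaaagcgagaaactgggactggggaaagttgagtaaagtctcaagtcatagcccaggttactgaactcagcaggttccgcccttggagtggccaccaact

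**Figure D1:**
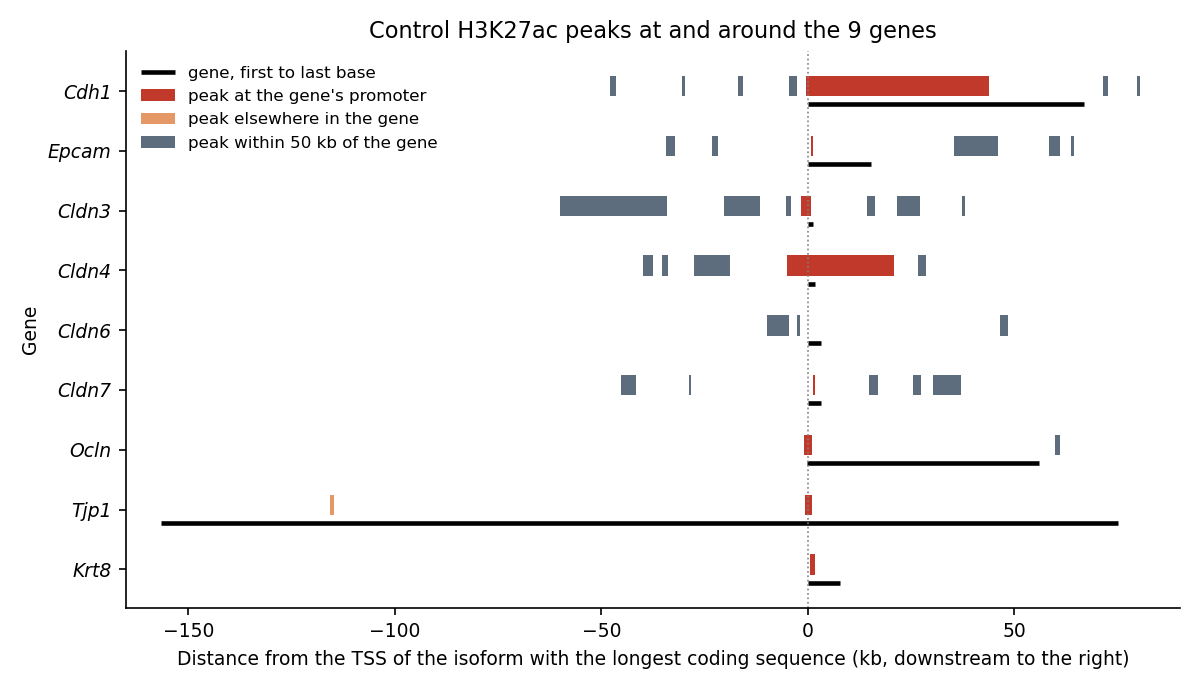
Control H3K27ac peaks at the 9 genes, placed by their distance in kb from the start of the isoform with most coding sequence, with downstream to the right. Black lines are the genes, red bars peaks at the gene's own promoter, the orange bar a peak elsewhere in the gene and grey bars other peaks within 50 kb. Cdh1 and Cldn4 carry the wide peaks, Cldn6 has no red bar, and Krt8 has no other peak.

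Cdh1 (ENSMUSG00000000303.12, chr8:106603351-106670246, + strand, 66896 bp) encodes E-cadherin. Its promoter peak, at chr8:106602808-106647208, reached from position -543 to +43857 of the TSS and held all 3 annotated TSSs. It spanned exons 1 and 2 and ran from intron 1 into intron 2 of the isoform with the longest coding sequence. Annotated exons made up 457 bp of it (1.03%), so nearly all of the peak lay outside exons. Peaks covered 65.6% of the gene, more than in 95.4% of protein-coding genes, and the peak was wider than those at 99.4% of the marked genes. A separate peak of 1938 bp (chr8:106598652-106600589) lay upstream, with 2218 bp between the 2 peaks. The authors joined peaks within 2 kb, so this gap was just too wide to be closed. For the same reason a wide peak may combine separate calls and the gaps between them. When peaks less than 5 kb apart were joined, the peak at the Cdh1 promoter grew to 48.6 kb. With 4 peaks upstream and 2 downstream, Cdh1 had 7 peaks within 50 kb, and together they held 51.8 kb. Among the others was a peak of 549 bp at the promoter of Gm10073 and one of 740 bp at Tango6.

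Epcam (ENSMUSG00000045394.9, chr17:87635979-87651129, + strand) encodes the epithelial cell adhesion molecule, a surface protein of epithelia and of embryonic stem cells that binds claudins. Its peak at chr17:87636617-87637241 covered 625 bp, from position +638 to +1262 of the first TSS, over exon 2 and intron 2. Of 4 different TSSs, the peak contained the one at 87636682, and the other three lay 600 to 638 bp before it. A narrower peak was found at 3.79% of marked genes. The nearest upstream peak ended 21.7 kb before the TSS, and there were 6 peaks within 50 kb in all.

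The claudins are membrane proteins with 4 passes through the membrane that form the strands of tight junctions, and 4 of them were followed here. Cldn3 (ENSMUSG00000070473.4, chr5:134986214-134987472, + strand) and Cldn4 (ENSMUSG00000047501.3, chr5:134945119-134946934, - strand) are single-exon neighbours, with 39280 bp between their TSSs, and are the claudins known as receptors of a clostridial enterotoxin. Cldn4 lay wholly inside a peak of 25913 bp at chr5:134926183-134952095, which ran from position -5161 to +20751 of its TSS. That peak also overlapped the promoter of the neighbouring gene Mettl27 and that of 9030607J07Rik, so it cannot be assigned to Cldn4 alone. It was wider than the peaks at 97.6% of marked genes. Cldn3 had a peak of 2435 bp at chr5:134984495-134986929, from position -1719 to +715 of its only TSS, which is near the median of marked genes (2304 bp). Between the 2 genes stood a peak of 8756 bp (chr5:134965797-134974552) and one of 1360 bp (chr5:134980826-134982185), neither of them at an annotated coding promoter. The 2 genes are thus within 50 kb of the same 4 peaks, and their surroundings are not independent. Cldn3 had 7 and Cldn4 had 5 peaks within 50 kb.

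Cldn7 (ENSMUSG00000018569.12, chr11:69964779-69967885, + strand) had the narrowest promoter peak of the 8 genes, of 549 bp at chr11:69966051-69966599. It lay over exon 2 and intron 2 of the isoform with the longest coding sequence, from position +1272 to +1820 of its TSS, and none of the 5 TSSs was inside it. The gene counted as marked through 2 shorter isoforms, one that starts 655 bp upstream of the peak and one that starts 319 bp downstream of it, while its 3 most upstream TSSs were 1216 to 1272 bp away. The other 5 peaks within 50 kb of Cldn7 all lay at the promoters of coding genes, among them Eif5a, Ybx2, Gabarap and Dvl2.

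Cldn6 (ENSMUSG00000023906.3, chr17:23679249-23682446, + strand), a claudin known from early embryonic epithelia and pluripotent cells, had no peak at any of its 3 TSSs or in its body. The nearest peak, of 666 bp at chr17:23676695-23677360, ended 1889 bp upstream of the first TSS and lay at the promoter of Tnfrsf12a. With windows of 2 kb instead of 1 kb Cldn6 would count as marked through this peak, and the marked genes would be 9 of 9 beside 52.7% of all coding genes. Since the authors removed peaks below a height threshold and away from ATAC-seq summits, the absence of a listed peak does not show that acetylation was absent. Cldn9, the next gene downstream, had no peak within 6666 bp of its TSS.

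**Figure D2:**
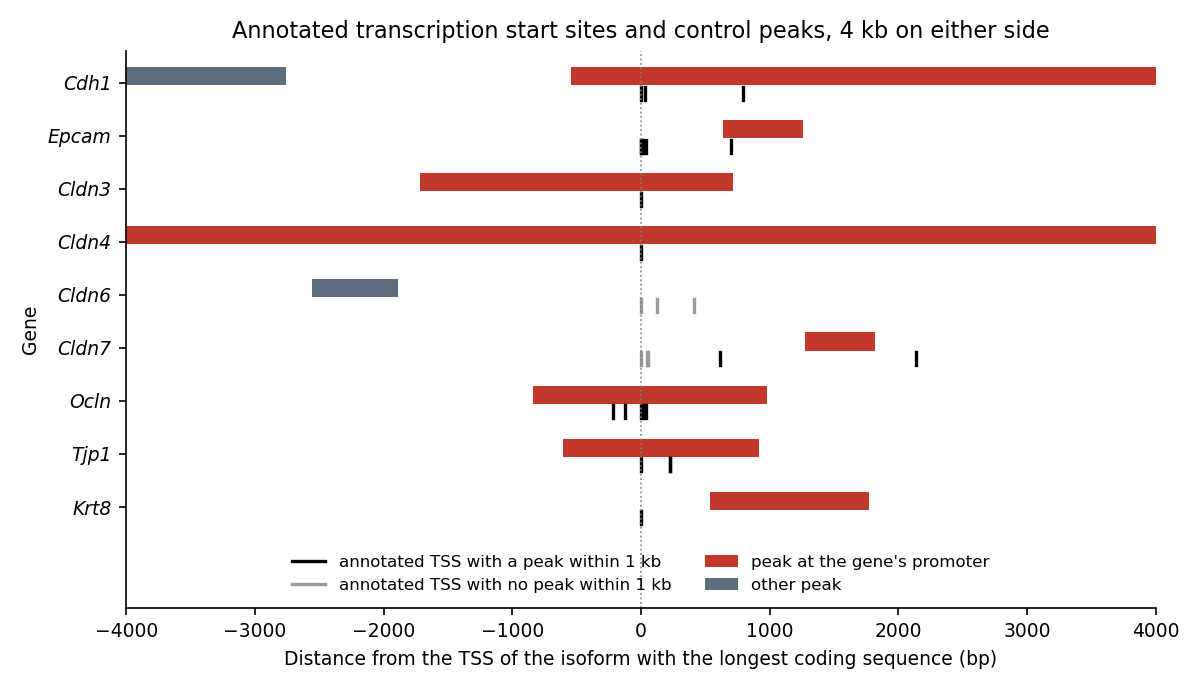
The 4 kb on either side of the start of the isoform with most coding sequence, in bp, for each gene. Ticks are annotated TSSs, black with a control peak within 1 kb and grey without, red bars are peaks at the gene's promoter and grey bars other peaks. Peaks contain this start in Cdh1, Cldn3, Cldn4, Ocln and Tjp1, and begin downstream of it in Epcam, Cldn7 and Krt8.

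Ocln (ENSMUSG00000021638.12, chr13:100496507-100552718, - strand) encodes occludin, which lies in the tight junction beside the claudins. All 5 of its TSSs stood inside a peak of 1820 bp (chr13:100551520-100553339), from position -841 to +978 of the TSS of the longest isoform. The only other peak within 50 kb, of 1235 bp, lay past the end of the gene at the promoter of Gtf2h2. Tjp1 (ENSMUSG00000030516.14, chr7:65296165-65527781, - strand, 231617 bp) encodes ZO-1, the scaffold that ties claudins and occludin to actin. The peak at its promoter, 1529 bp at chr7:65370319-65371847, held the TSSs of the isoforms with full-length coding sequences, at 65371239 and 65371015. A second annotated start at 65527696, which belongs to the isoform of greatest genomic span, was 40857 bp from the nearest peak. Tjp1 was the only one of the 9 genes with a peak in its body outside its promoter windows, of 842 bp at chr7:65485998-65486839, beside 17.4% of all coding genes. None of the 9 had one when peaks under 1 kb were left out, and 2 had one when the isoform of greatest span stood for each gene. The other was Cldn7, whose promoter peak lies 1216 bp from the start of that isoform and so falls in the body. No share of all coding genes is given for these settings. The peak inside Tjp1 lies upstream of the start of the full-length isoforms, 114150 bp from the promoter peak, and is inside the gene only through the isoform that starts at 65527696. Ocln and Tjp1, both long genes, had peaks on 2.13% and 1.02% of their length and 2 peaks each within 50 kb.

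Krt8 (ENSMUSG00000049382.10, chr15:101996698-102004482, - strand) encodes keratin 8, the type II keratin of simple epithelia, which forms filaments with keratin 18 and is anchored at desmosomes. A peak of 1231 bp (chr15:102002713-102003943) lay from position +539 to +1769 of its single GENCODE TSS, over the end of exon 1 and in intron 1, with 46 bp in annotated exons. It was the only peak within 50 kb, and the lincRNA Gm36026 shares it. With windows of 500 bp Krt8 would not count as marked, which would leave 7 of 9 genes beside 51.5% of all coding genes. The RefSeq TSS of Krt8, at 102004342, is nearer to the peak, at 399 bp, and a window of 500 bp around that start would reach it. Its partner Krt18, which lies close by on the same chromosome, was unmarked, with the nearest peak 24.2 kb from its TSS.

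Across the 8 marked genes the median width of the widest promoter peak was 1675 bp, beside 2304 bp (quartiles 1586 and 5191 bp) at the 11384 marked coding genes. The peaks of Cdh1 and Cldn4 made up 89.6% of the bases in the promoter peaks of the 8 genes. Peaks of at least 25 kb stood at 2 of the 8 genes, and at 2.69% of all marked genes. At the other end, 2 of the 8, Epcam and Cldn7, had only peaks below 1 kb, beside 10.2% of all marked genes. Both would be lost if peaks had to be at least 1 kb wide, and 6 of 9 genes would then be marked beside 46.6% of all. The median gene had 15.8% of its length in peaks, beside 1.53% for all coding genes and 9.65% for the marked ones. However, 4 of the 9 genes, the claudins, are no longer than 3198 bp, and in short genes a promoter peak takes up much of the gene. Without peaks under 1 kb the median fell to 2.13%, above the 0.53% of all coding genes and below the 8.92% of the marked ones. Outside the promoter windows it was 0.188%, beside 0 for all coding genes and 1.71% for the marked ones. In both alternatives the members were thus less covered than marked genes.

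**Figure D3:**
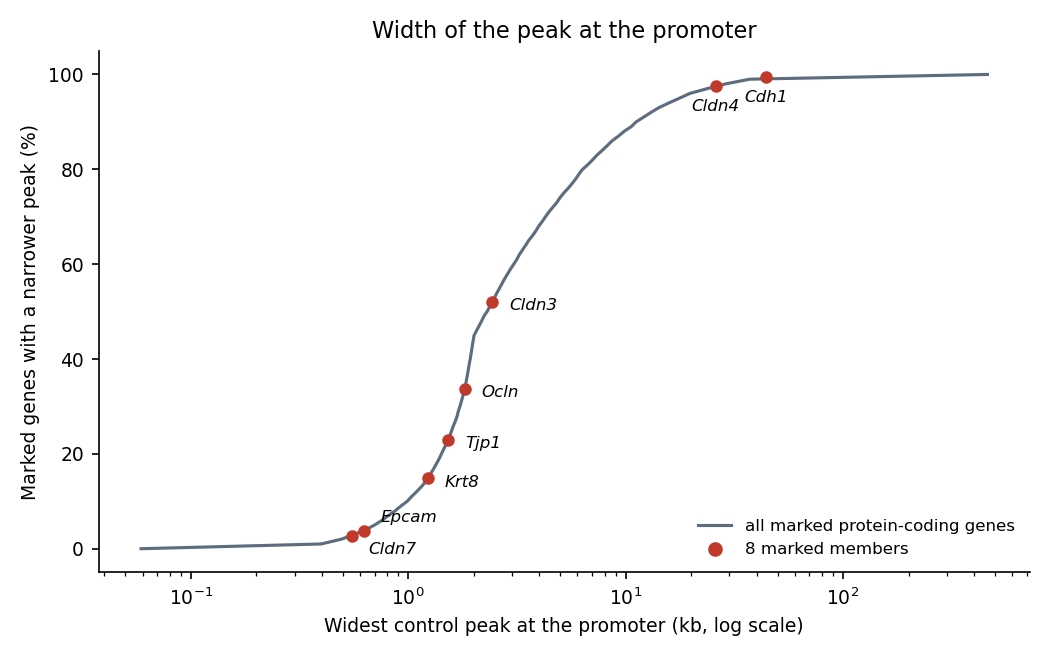
Width of the widest control peak at the promoter (kb, log scale) against the share of marked coding genes with a narrower peak (%). The grey line is the distribution over 11384 marked coding genes and red points are the 8 marked members, which run from Cldn7 at 0.549 kb to Cdh1 at 44.4 kb.

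In the 50 kb on either side of the genes, the number of peaks ranged from 1 at Krt8 to 7 at Cdh1 and Cldn3, with a median of 5 beside 2 for all coding genes. In total there were 35 different peaks, of which 4 were near more than 1 of the 9 genes. Promoter peaks of the members were 8 of them and the Tjp1 internal peak 1 more. Of the remaining 26, 15 lay at the promoter of another coding gene and 11 at no coding promoter, with median widths of 1992 and 1595 bp. The 11 ran from 561 bp to the peak of 8756 bp between Cldn3 and Cldn4.

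The promoters of the 8 genes with a RefSeq entry were of middling CpG content. Their CpG ratio, the number of CpG dinucleotides over that expected from the C and G content, had a median of 0.47, beside 0.79 in marked and 0.25 in unmarked coding promoters. Tjp1 had the highest, 0.97, above 89.8% of coding promoters, and the 2 promoters of Ocln followed with 0.60 and 0.70. Krt8 (0.24), Cldn4 (0.32) and Cldn3 (0.35) had the lowest ratios, followed by the upstream promoter of Cldn7 (0.36). These, Epcam (0.45) and Cldn6 lay below the median of all coding promoters (0.57). The unmarked Cldn6 had 0.49, between the values of its marked relatives. These positions turned with the window. In 1 kb on both sides of the TSS the median of the 10 was 0.60, above the 0.48 of all coding promoters, and Cldn3 had 0.61, above that median, while Krt8 (0.35) and Cldn4 (0.39) stayed below it.

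**Figure D4:**
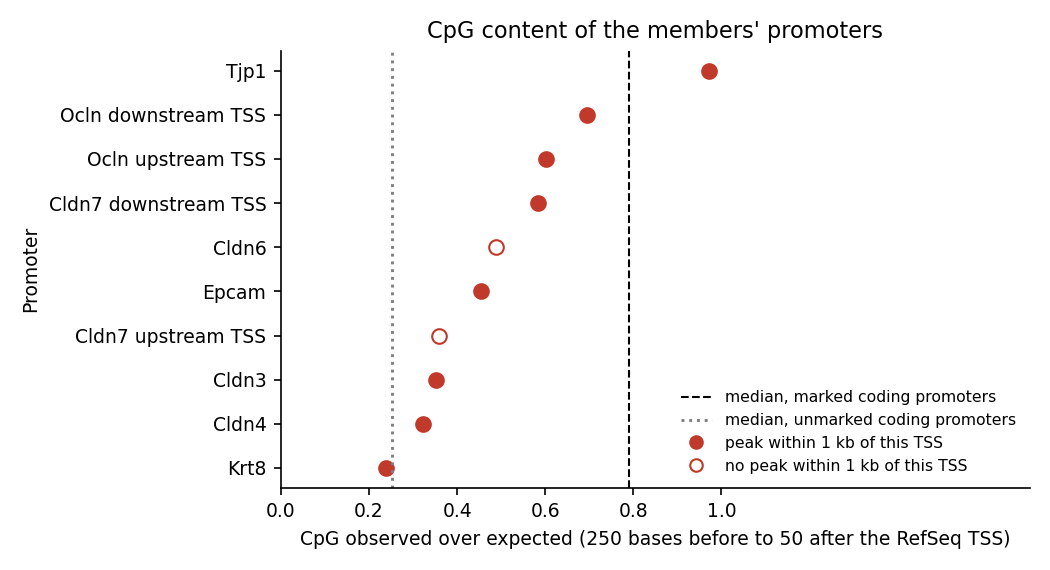
CpG observed over expected in 10 RefSeq promoters of 8 members, each from 250 bases before to 50 after the TSS. Filled points have a control peak within 1 kb of that TSS and open points have none. The dashed and dotted lines are the medians of marked (0.79) and unmarked (0.25) coding promoters, and Tjp1 alone lies above the dashed line.

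The other 6 motifs were also searched on both strands. The GC box GGGCGG, to which Sp factors bind, was in 8 of the 10 promoters, beside 46.2% of all coding promoters and 67.4% of the marked ones. The TATA box TATAAA was in 1 of 10, that of Krt8, beside 12.6% of all. There it overlaps its own reverse complement TTTATA, at chr15:102004338-102004343, starting 1 base before the RefSeq TSS.

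Krt8 -1 (chr15:102004338-102004343, - strand): cctcttctttTATAAAgggccttcgc

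GGGTGTG, a KLF element, was in 1 of 10, the upstream promoter of Ocln, beside 8.02% of all coding promoters. The octamer core ATGCAAA, the estrogen-related receptor element AAGGTCA and the grainyhead element ACCGGTT were in 0 of 10, beside 4.23%, 4.08% and 1.19% of all. In windows of 1 kb on both sides of the TSS, 10 of 10 promoters held CACCTG, beside 79.2% of coding promoters, with a median of 5.5 matches beside 1. GGGCGG was then in 10 of 10 beside 67.2%, GGGTGTG in 6 beside 38.2%, TATAAA in 2 beside 58.4%, ATGCAAA in 1 beside 26.8%, and AAGGTCA and ACCGGTT in 0 beside 29.4% and 5.78%. Such windows overlap for genes with 2 promoters, and so do the 300-base promoters of Ocln.

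The other genes of the same structures were described by lists, with the 9 members left out. In the adherens junction and nectin list 10 of 13 were marked, beside 51.9% of all coding genes. The catenins Ctnnb1 and Ctnnd1, which bind the tail of E-cadherin, had peaks of 2947 and 2872 bp, plakoglobin (Jup) one of 15.2 kb and Nectin2, an adhesion receptor, one of 17.4 kb. Cdh3 (P-cadherin), which lies upstream of Cdh1, had a peak of 1028 bp 86 bp from a TSS. The 3 unmarked genes were Nectin4 and 2 genes known from neural tissue, Cdh2 (N-cadherin, nearest peak 54.3 kb away) and Ctnna2.

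Among tight junction membrane and scaffold genes 13 of 18 were marked. The widest peak was at Jam2, a junctional adhesion molecule, with 45.2 kb, and Tjp3, another ZO protein, had 13.1 kb beside the 1.53 kb of Tjp1. Unmarked were Marveld2 and Marveld3, relatives of occludin, and Jam3, Cgnl1 and Crb3. Of 18 further claudins 5 were marked, namely Cldn5, Cldn12, Cldn14, Cldn15 and Cldn20, and Cldn1, Cldn8 and Cldn9 were among the 13 that were not. The marked claudins outside the 9 genes had peaks of 1.00 to 9.06 kb, so none was as wide as that over Cldn4. With the 4 members counted, 8 of 22 claudins were marked. Several claudins lie in pairs, such as Cldn6 with Cldn9, and are not independent.

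In the desmosome list 6 of 11 were marked, among them Dsp, the plakin that holds keratin filaments (1645 bp), Dsg2 (2930 bp) and Pkp4 (10.6 kb), and the 5 unmarked were Dsg1a, Dsg3, Dsc3, Pkp1 and Perp. Of 8 keratins other than Krt8 1 was marked, Krt10 (1577 bp), and Krt18, Krt7, Krt19, Krt5 and Krt14 were unmarked. Of 17 epithelial regulators and partners 12 were marked. The widest peaks of this list were at Klf5 (79.2 kb), a factor also known for its part in mESC self-renewal, at the GTPase gene Rab25 (70.2 kb) and at the ETS factor Elf3 (27.8 kb), and Esrp1, Grhl1, Ovol1 and Ehf were among the unmarked. Over all 6 epithelial lists 47 of 85 genes were marked, or 55.3%, close to the 51.9% of all coding genes.

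Mesenchymal counterparts, which are known to replace epithelial genes in epithelial-mesenchymal transition, were marked at 5 of 14 genes, beside 51.9% of all coding genes. The count was 3 where a TSS had to lie inside a peak, where the overlap had to reach 500 bp, or without peaks under 1 kb. In these settings 49.1%, 50.5% and 46.6% of all coding genes were marked. The epithelial lists then had 41, 44 and 44 marked genes of 85. Fn1 (fibronectin) had a peak of 25.2 kb, Vim (vimentin) one of 4231 bp and Zeb1, a repressor of Cdh1, one of 2316 bp. The peaks at Zeb2 (329 bp) and Twist1 (476 bp) were narrow and held no TSS. Snai1 and Snai2, the other repressors that act through the E-box, were unmarked, with peaks 30.8 and 87.8 kb away, and so was Cdh11.

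**Figure D5:**
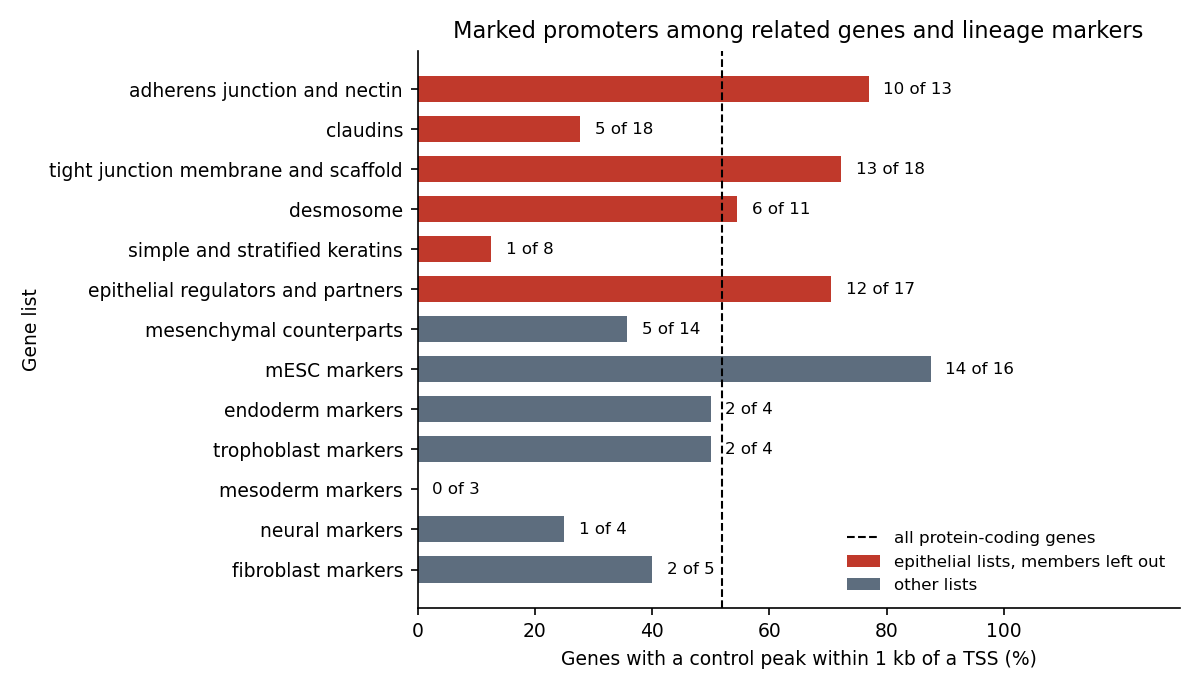
Share of genes with a control peak within 1 kb of a TSS (%) in each list, with counts beside the bars. Red bars are the epithelial lists without the 9 members, grey bars other lists, and the dashed line is the 51.9% of all coding genes. Claudins (5 of 18) and keratins (1 of 8) lie below the line, and adherens junction (10 of 13) and tight junction genes (13 of 18) above it.

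Markers were checked against the cell type in the labels. Of 16 mESC markers 14 were marked, with a median promoter peak of 28860 bp, among them Pou5f1 (34.0 kb), Nanog (36.0 kb) and Esrrb (63.0 kb), and Klf4 and Sall4 were unmarked. The 44.4 kb of Cdh1 lay within the range of these genes, from 3.64 kb at Utf1 to 71.8 kb at Tfcp2l1. Of the lineage markers, 2 of 4 for endoderm, 2 of 4 for trophoblast, 0 of 3 for mesoderm, 1 of 4 for neural cells and 2 of 5 for fibroblasts were marked.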

How the data were processed

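The sample labels gave groups and replicates. The authors trimmed reads with Cutadapt, aligned them with bwa to mm10 and the human genome of the HEK293T spike-in, filtered out duplicates (Picard 2.9.1) and reads of low mapping quality (samtools 1.4), used LanceOtron as the peak caller, joined peaks within 2 kb with Bedtools, and dropped those below height thresholds after input subtraction and those with no ATAC-seq summit nearby. The deposited list gives chromosome, start and end in mm10 for control cells, pooled over 2 replicates, with no count, signal or score per the file itself, so these values are positions in base pairs.

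Peaks were compared with GENCODE vM21 (GRCm38, an earlier release than the authors used), with all transcripts of protein-coding genes on 21 chromosomes. Printed coordinates count from 1. Some genes and 1 sequence are not reported here. Medians and shares are descriptions without a test. The list itself does not show the depth of the libraries behind it, and read totals were not used here. The rule for the members used no measured value, but members, lists, motifs and alternatives were all chosen with earlier results of these data known, and 1 alternative was added once the peak list itself had been examined. All 9 members were described, at most 8 other genes per list were named, and neighbours were named where they share a peak or hold the TSS nearest to one. On simulated data the overlap functions recovered 3000 of 3000 planted promoters among 21938 genes. The Pals1 gene was matched under its symbol Mpp5 through the synonyms of the RefSeq gene table. Analyses ran in Python 3.11.15 (pandas 2.3.3, numpy 2.4.6, matplotlib 3.10.9).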

Additional observations from a re-analysis of the deposited data

How the results depend on the processing

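No paired analysis was possible because both control replicates are pooled in 1 list and the results are descriptions, and neither replicate could be left out. The count of marked members was 8 and ranged from 6 to 9 over 7 alternatives (windows of 500 bp or 2 kb, a TSS inside a peak, the isoform of longest genomic span alone, an overlap of at least 500 bp, peaks at least 1 kb wide and, added after the peak list had been examined, protein-coding transcripts alone). Of 63 values for single members, 9 changed. Cdh1, Cldn3, Cldn4 and Ocln were marked under all 7. The marked mesenchymal counterparts fell from 5 to 3 where a TSS had to lie inside a peak, with an overlap of at least 500 bp, and without peaks under 1 kb. In the same settings the marked genes of the epithelial lists fell from 47 to 41, 44 and 44. The median width of promoter peaks was 2128 bp at the isoform of longest genomic span. The count of members with a peak in the gene body was 0 with peaks at least 1 kb wide and 2 within the isoform of longest genomic span, in place of 1. No share of all coding genes is given for these settings. The median share of the gene in peaks was 0.188% without promoter windows, over 8 members since Cldn7 lies wholly within its windows, and 2.13% without peaks under 1 kb. The median number of peaks near a member was 2 within 20 kb, 8 within 100 kb, and 4 where peaks less than 5 kb apart were joined, beside 1 and 4 for all coding genes within 20 and 100 kb. The median CpG ratio of member promoters was 0.60 in windows of 1 kb on both sides of the TSS, above the 0.48 of all coding promoters, where it was below them (0.47 beside 0.57) in the 300-base promoters.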
